A study of Mus musculus with 6 samples.

Results

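Potassium, sodium, calcium, TRP, P2X, chloride intracellular, anoctamin and HCN channel genes were examined in macrophages that had been grown from mouse bone marrow with the growth factor M-CSF. Of 57180 genes in the deposited table, 187 carry a name of these families, and the 47 with a mean of at least 10 counts over the 6 libraries are described here. They were chosen by name and by their mean count over both groups, so their levels are a description. Just inside that limit were Hcn3 with a mean of 10.2 counts, Cacna1e with 10.3 and Kcnj16 with 10.3, and just outside it were Cacna1f with 9.83 and Kcng2 with 9.17. The naming pattern also took in genes that encode no channel. Among the 47 these were 2: Trpc4ap, whose protein binds a TRPC channel, and Kcnq1ot1, a long non-coding RNA transcribed antisense to Kcnq1.

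All cultures were wild-type (the strain is not named in the labels), from mice of 6 to 8 weeks, with 7 days in M-CSF at 20 ng/mL. One group of 3 libraries came from cultures given IL-4 at 20 ng/mL, a cytokine of type 2 immunity. The other 3 libraries came from cultures given IL-4 together with CGRP, a neuropeptide of sensory nerves, and treatment lasted 24 h. No culture went without IL-4, and the labels leave unstated whether replicates came from separate cultures or animals. The p-values therefore cover only the spread between these libraries, which may be technical. The comparison asks which channel transcripts differ in IL-4-treated macrophages when CGRP is added.

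Ion channels are membrane proteins that let selected ions pass down their gradients. In macrophages, potassium channels set the membrane voltage and so the driving force for calcium entry, P2X receptors open when extracellular ATP binds, and TRP channels respond to stretch, heat, oxidants or lipids. Potassium leaving the cell through channels opened by ATP is a known trigger of the NLRP3 inflammasome. CGRP acts on a receptor that couples to the stimulatory G protein and raises cyclic AMP. Many channels are pore-forming alpha subunits joined by auxiliary beta subunits that govern their trafficking and gating.

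Library totals ranged from 20088895 to 24060444 counts. The macrophage markers Csf1r, Adgre1 and Lyz2 were high in both groups (3483, 2262 and 4163 CPM on average with IL-4; CPM are counts scaled by TMM-adjusted library totals). Of the 9 macrophage markers, Itgam and Cd14 rose by 0.41 and 0.61 on the log2 scale (edgeR adjusted p = 0.0012 and 5.9e-04), and the other 7 did not pass. Summed levels of the 9 were 14411 to 14650 CPM with IL-4 and 14665 to 15038 CPM with IL-4+CGRP, higher with CGRP without overlap. IL-4+CGRP replicate 2 stood apart: on the first principal component, which held 37.6% of the variance, it lay at -0.17, against 22.0 and 27.0 for the other IL-4+CGRP libraries and -26.0 to -11.2 for the IL-4 libraries. For the channel genes described here, results that turn on it are given with and without it. Of the neuronal markers, Nefl was at 0 counts, and the 9 together summed to 1.83 to 3.49 CPM with IL-4 and 2.21 to 2.76 CPM with IL-4+CGRP. Summed levels of the 6 endothelial markers were 139 to 158 against 179 to 201 CPM (Pecam1 and Kdr rose, and Tek had at most 0.0712 CPM on average in a group), and those of the 6 osteoclast markers 99.8 to 106 against 82.2 to 86.8 CPM (Acp5, Ocstamp and Dcstamp fell, and Calcr was at 0). Sums over markers of erythroid cells or platelets (49.8 to 53.7 against 68.5 to 91.9 CPM) and of fibroblasts (43.6 to 46.7 against 48.7 to 54.6 CPM) were higher with CGRP without overlap, and those of mast cells or basophils (6.56 to 7.38 against 5.18 to 5.90 CPM) lower, with 0 single markers called in each. Dendritic cell sums overlapped (714 to 901 against 588 to 842 CPM), while Itgax fell by 1.24 and Siglech by 1.64 on the log2 scale (edgeR adjusted p = 1.3e-06 and 0.022) and Ccr7 rose by 0.47 (0.0068). T cell, B cell and neutrophil sums overlapped, with 0 markers called. The part of these shifts in the results below was not tested.

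Set against gene length, the most abundant of the 47 transcripts was P2rx4, the ATP-gated channel of endosomes and lysosomes, at 262 CPM per kilobase over all libraries. Clic1 and Clic4, chloride intracellular channel proteins that exist in soluble and membrane forms, followed at 233 and 161 CPM per kilobase. Next came Ano6, a calcium-activated phospholipid scramblase and channel (85.8 CPM per kilobase), Trpv2, a calcium-permeable TRP channel of macrophages (80.8) and Trpc4ap (52.4). Among potassium channel genes the highest per length were the auxiliary subunit Kcnab2 (36.5), the calcium-activated channel Kcnn4 (35.7) and the 2-pore channels Kcnk13 (21.5) and Kcnk6 (18.6). P2rx7, the ATP receptor of the inflammasome pathway, stood at 20.8 CPM per kilobase. In this order the ranges over the 6 libraries overlapped for P2rx4 and Clic1, for Ano6 and Trpv2, for Kcnab2 and Kcnn4, for Kcnk13 and P2rx7, and for P2rx7 and Kcnk6. Classical voltage-gated sodium and calcium channel pores lay far lower: Cacna1d at 1.80, Cacna1a at 1.34, Scn4a at 0.286 and Scn3a at 0.243 CPM per kilobase. Cacna1e (0.0319) was the lowest of the 47, and Kcnq1ot1 (0.106) was also near the end of the order.

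**Figure D1:**
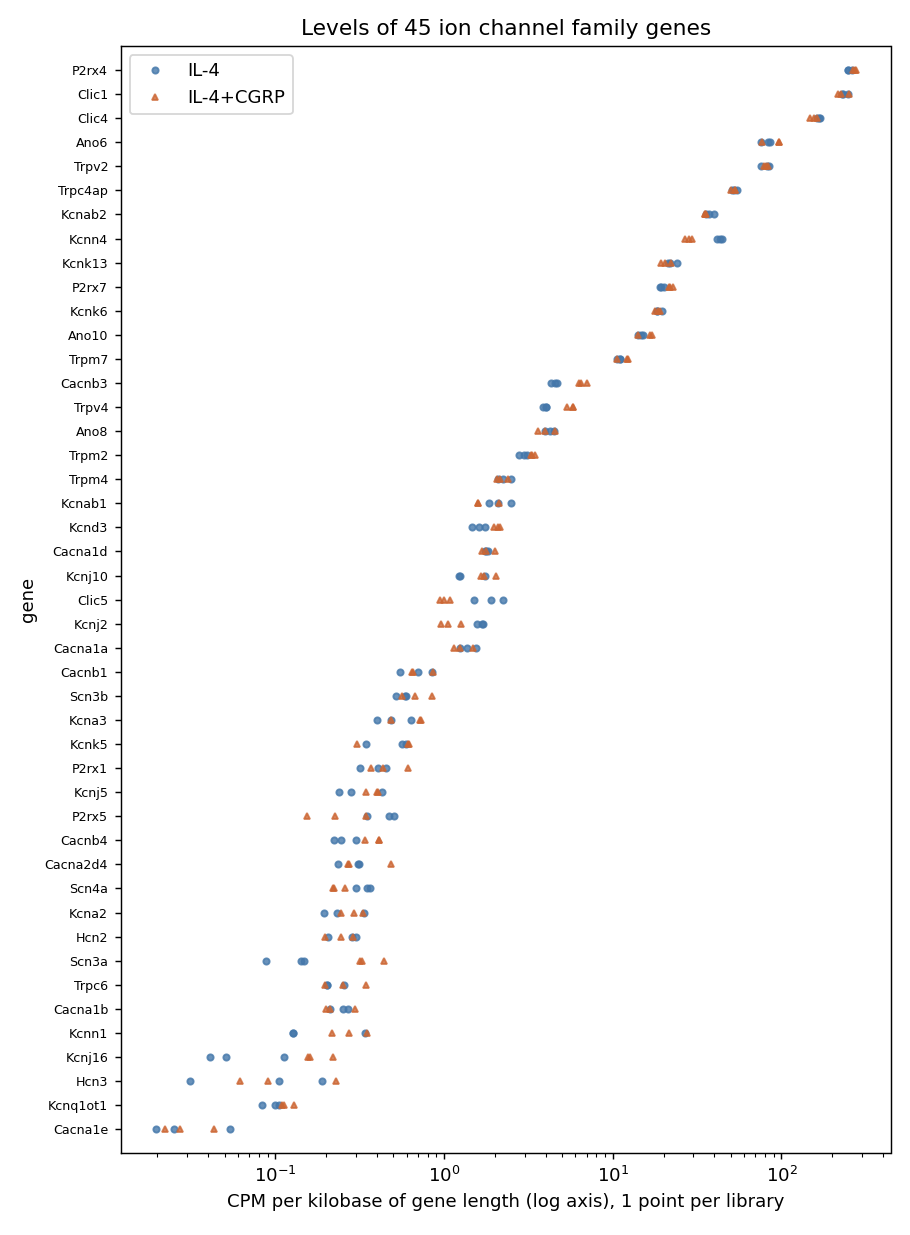
Level of 45 of the 47 genes in CPM per kilobase of gene length (log axis), with 1 circle per IL-4 library and 1 triangle per IL-4+CGRP library. The genes span from P2rx4 at 262 to Cacna1e at 0.0319, and for most genes the symbols of both groups lie on top of each other.

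Of the 140 genes with a family name below the limit, the antisense transcript Kcnd3os among them, 58 had 0 counts in all 6 libraries. They include the sensory neuron channels Trpv1, Trpm8, Scn9a and Scn10a, which were singled out after their values were seen. In a single library, a count of 0 allows up to 3 counts, or 0.152 CPM in the shallowest, counting error only. The large-conductance potassium channel Kcnma1, its subunit Kcnmb1 and Kcnq1 each averaged 0.333 counts.

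Channel genes that differed between the groups by the edgeR test with adjustment over all 13260 genes tested were 6: Scn3a, Cacnb3 and Trpv4 rose, and Kcnn4, Kcnj2 and Clic5 fell. Of the 47 genes, 45 had enough counts to be tested (Hcn3 and Cacna1e did not), so 3 of 45 were higher and 3 of 45 lower, 13.3% in all. Among all genes tested 3.85% were called, 2.32% as higher and 1.54% as lower. The median log2 fold change was 0.10 over the 45 and -0.00 over all genes tested, and the median absolute log2 fold change was 0.19 and 0.11, at a median level of 7.46 and 19.6 CPM. Groups did not overlap for 11 of the 47 in the higher direction and for 6 in the lower, where all tested genes gave 11.1% and 9.92%. At an unadjusted p under 0.05 the test gave 17 of the 45, and 2098 of the 13260 genes tested. Since RNA was taken from whole cultures, fewer cells making a transcript and less transcript per cell cannot be told apart.

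**Figure D2:**
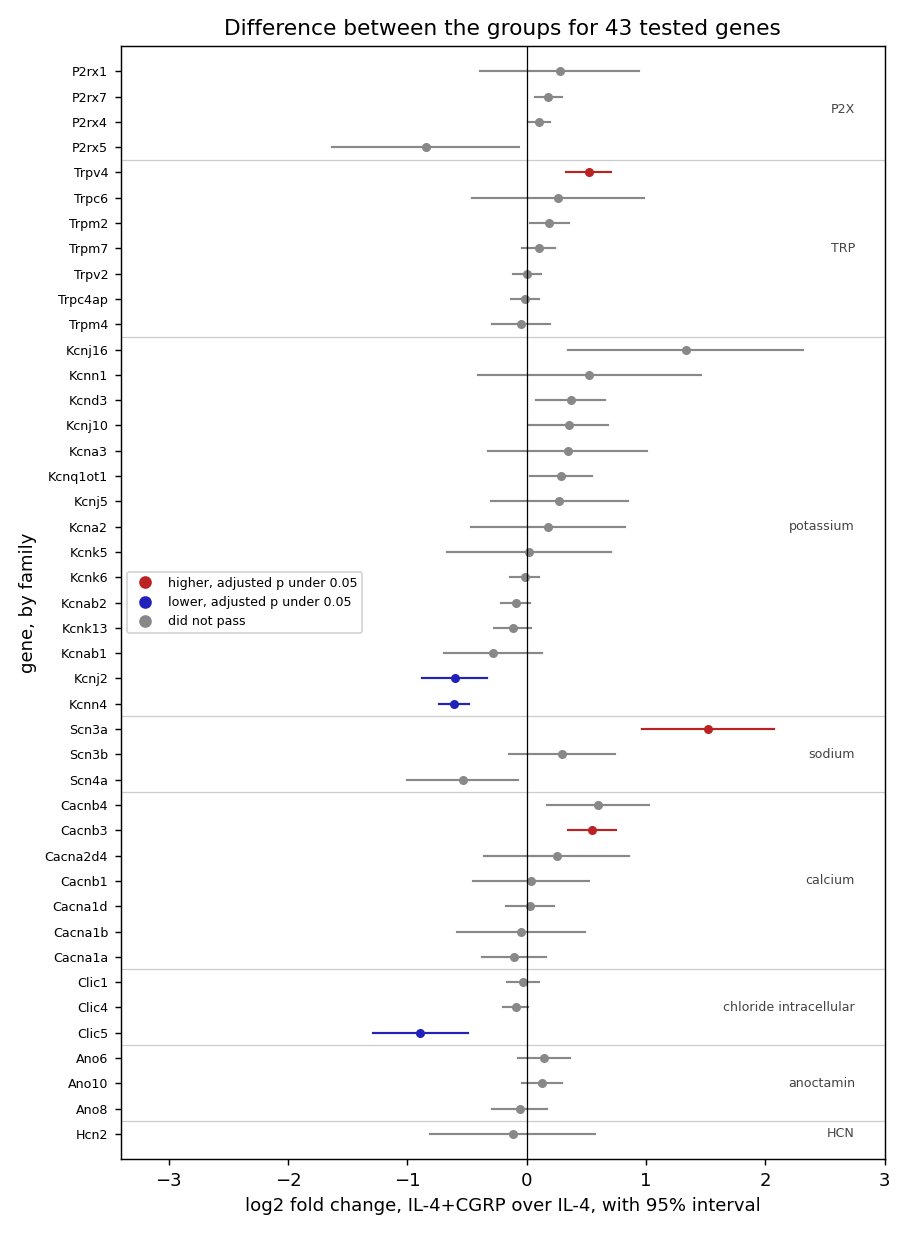
Log2 fold change of IL-4+CGRP over IL-4 for 43 of the 45 tested genes by family, with the 95% interval from the edgeR fit. The 3 red points (Scn3a at 1.52, Cacnb3 at 0.55 and Trpv4 at 0.52) and the 3 blue points (Clic5 at -0.89, Kcnn4 at -0.61 and Kcnj2 at -0.60) passed the test, and intervals widen for genes with few counts such as Kcnj16.

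Both potassium channels that changed were lower with CGRP. Kcnn4 (ENSMUSG00000054342) encodes KCa3.1, a channel opened by calcium inside the cell, which keeps the membrane negative while calcium enters. Its levels were 88.4, 83.0 and 86.0 CPM in IL-4 replicates 1 to 3 and 53.5, 59.0 and 56.5 CPM in IL-4+CGRP replicates 1 to 3. Every IL-4 library was above every IL-4+CGRP library, and the gap was several times the spread within a group. The fall was 1.52-fold, a log2 fold change of -0.61 ± 0.06 (SE), from 85.8 ± 2.70 to 56.3 ± 2.72 CPM (SD, n = 3), with an edgeR adjusted p = 1.1e-04. This call held under all 15 alternatives, with log2 fold changes from -0.64 to -0.58. It was the most abundant of the 6 changed genes.

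Kcnj2 (ENSMUSG00000041695) encodes Kir2.1, an inward rectifier that holds the resting voltage near the potassium equilibrium. It measured 9.30, 8.53 and 9.13 CPM with IL-4 and 5.19, 5.73 and 6.84 CPM with IL-4+CGRP. The groups did not overlap, and IL-4+CGRP replicate 3 lay nearest to the IL-4 libraries. The fall was also 1.52-fold (log2 fold change -0.60 ± 0.13, SE; edgeR adjusted p = 0.020). The call ended when any one of the IL-4 libraries was left out (adjusted p = 0.096, 0.076 and 0.094 for replicates 1 to 3), and also without the first IL-4+CGRP library (0.10). In those fits the log2 fold change lay between -0.64 and -0.52. The call also ended in a fit with the replicate number as a block.

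The sequences before the start sites of these 2 genes are shown as the DNA of the potassium channel transcripts that fell, beside that of Trpv4, which rose. Each run gives the 200 bases before the start that the RefSeq promoter table lists (GRCm38.p6, not the GRCm39 build of the counts), 5′ to 3′ on the gene's strand, with CG dinucleotides in capitals. Kcnn4 lies at chr7:24370063-24370262 on the plus strand, Kcnj2 at chr11:111065964-111066163 on the plus strand and Trpv4 at chr5:114658422-114658621 on the minus strand.
Kcnn4: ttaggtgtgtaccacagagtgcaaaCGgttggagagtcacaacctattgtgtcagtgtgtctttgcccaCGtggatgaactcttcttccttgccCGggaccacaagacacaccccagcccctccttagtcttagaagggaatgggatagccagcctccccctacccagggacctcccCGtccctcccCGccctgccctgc
Kcnj2: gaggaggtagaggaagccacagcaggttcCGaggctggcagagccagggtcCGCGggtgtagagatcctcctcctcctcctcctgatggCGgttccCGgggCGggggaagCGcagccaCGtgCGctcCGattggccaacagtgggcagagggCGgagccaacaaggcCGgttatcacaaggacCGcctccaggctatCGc
Trpv4: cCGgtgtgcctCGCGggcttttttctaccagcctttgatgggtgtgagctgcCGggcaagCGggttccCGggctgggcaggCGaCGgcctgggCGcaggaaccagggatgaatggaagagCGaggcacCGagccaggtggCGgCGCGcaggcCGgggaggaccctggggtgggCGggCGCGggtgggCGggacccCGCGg

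In the 250 bases before the start, Kcnn4 had 6 CG dinucleotides, Kcnj2 14 and Trpv4 22, against a median of 6 over 32851 promoter windows of the table. Of the other called genes, Clic5, which fell, had 13. Cacnb3, which rose, had 2 and 23 in its windows, and Scn3a had no window. The table held 52 windows for 36 of the 47 genes. Each window of 300 bases, from 250 before to 50 after the start, was searched on both strands for TGACGTCA (the cyclic AMP response element), TTCNNNNGAA (the form bound by STAT6) and GAGGAAGT (a form bound by PU.1). Shares of all windows with a match were 1.79%, 6.95% and 3.20%. Windows of the 47 genes held 0, 1 (in Kcnk13) and 4 (in Ano6, P2rx7 and Trpv2) matches, and the 6 windows of Kcnn4, Kcnj2, Clic5, Trpv4 and Cacnb3 held none. The half-site TGACG, which the full element contains, was in 11 of the 52 windows (21.2%), P2rx4, Trpm2, Trpm7 and Ano6 among them, and in 20.8% of all windows. A match describes letters, not binding.

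The other potassium channel genes did not pass. Among them the inward rectifiers Kcnj10 and Kcnj16, known to pair in one channel, had log2 fold changes of 0.35 ± 0.15 and 1.33 ± 0.45 (SE), with edgeR adjusted p = 0.28 and 0.16. Kcnj16 had only 3, 4 and 10 counts with IL-4 and 14, 13 and 18 with IL-4+CGRP, and it reached the count filter through the second group. Kcnd3, a voltage-gated channel of the A type, measured 3.89, 4.69 and 4.29 against 5.61, 5.28 and 5.76 CPM (adjusted p = 0.18); here too the groups did not overlap. Kcna3 (Kv1.3, the voltage-gated potassium channel of lymphocytes and activated macrophages) was low, at 0.758 to 1.22 CPM with IL-4 and 0.918 to 1.40 CPM with IL-4+CGRP. Its interval of log2 fold change ran from -0.32 to 1.01, which leaves out a fall of the size of Kcnn4's but not a rise of that size.

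More abundant potassium channel genes had narrower intervals. Kcnk6 (TWIK2, a 2-pore potassium channel linked to potassium efflux in macrophages) measured 74.6, 74.6 and 80.0 CPM with IL-4 and 78.0, 72.7 and 76.2 CPM with IL-4+CGRP. Its 95% interval of log2 fold change was -0.14 to 0.11, which leaves out a difference of the size of Kcnn4's. For Kcnk13 (THIK-1, the 2-pore channel of microglia) the interval was -0.27 to 0.04, and for the auxiliary subunit Kcnab2 -0.21 to 0.03. Kcnab2 was 136.2 to 151.9 CPM with IL-4 and 133.8 to 135.7 CPM with IL-4+CGRP, close together but not overlapping. Over the 16 genes named as potassium channels, Kcnq1ot1 included, 0 rose, 2 fell and 14 did not pass, and the median log2 fold change was 0.10. Over all genes tested, 2.32% rose and 1.54% fell. Kcnab1, Kcnk5, Kcnj5, Kcna2 and Kcnn1 had log2 fold changes from -0.28 to 0.53.

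Among 7 TRP-named genes Trpv4 alone passed, as higher, where 2.32% of all genes tested were higher. Whether it differed from the other TRP genes was not tested. Trpv4 (ENSMUSG00000014158) encodes a calcium-permeable cation channel opened by swelling, stretch, warmth and lipid messengers, and known in macrophages for matrix stiffness sensing and phagocytosis. It measured 12.4, 12.9 and 13.0 CPM with IL-4 and 18.8, 17.3 and 18.9 CPM with IL-4+CGRP. The IL-4 libraries lay close together and all IL-4+CGRP libraries lay above them. The rise was 1.43-fold (log2 fold change 0.52 ± 0.09, SE; edgeR adjusted p = 0.0054), and the call held under all 15 alternatives, between 0.49 and 0.56. Endothelial cells are also known to carry Trpv4, and the summed endothelial markers given above were higher in the same libraries; their part was not tested.

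None of the other TRP genes passed. Trpv2 measured 221, 245 and 238 CPM with IL-4 and 235, 230.3 and 240.5 CPM with IL-4+CGRP, with a 95% interval of log2 fold change from -0.11 to 0.12. Trpm2, opened by ADP-ribose after oxidative stress, measured 20.2, 22.4 and 21.5 against 23.9, 25.1 and 24.3 CPM. Its groups did not overlap, but the log2 fold change of 0.19 ± 0.08 (SE) had an edgeR adjusted p = 0.24. For Trpm4, a sodium-permeable channel opened by calcium, the log2 fold change was -0.05 ± 0.11 (SE), and Trpc6, opened by diacylglycerol, was low, at 0.642 to 1.13 CPM over all libraries.

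Calcium channel genes showed 1 rise, in an auxiliary subunit. Cacnb3 (ENSMUSG00000003352), the beta 3 subunit that carries voltage-gated calcium channels to the membrane and is known to bind inositol trisphosphate receptors, measured 10.7, 11.3 and 11.5 CPM with IL-4 and 16.0, 15.6 and 17.4 CPM with IL-4+CGRP. The groups did not overlap, and the lowest IL-4+CGRP library was well above the highest IL-4 library. The rise was 1.46-fold (log2 fold change 0.55 ± 0.09, SE; edgeR adjusted p = 0.0054), held under all 15 alternatives, between 0.50 and 0.58.

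Of the beta subunits, Cacnb4 had a log2 fold change of similar size, 0.60 ± 0.20 (SE), at 1.83 to 2.48 CPM with IL-4 and 2.80 to 3.39 CPM with IL-4+CGRP. It did not pass (edgeR adjusted p = 0.14), and 16.0% of its exon bases overlap the transcript A430018G15Rik on the other strand in GENCODE vM21. The change of Cacnb1 was 0.04 ± 0.22 (SE) on the log2 scale. The pore subunits did not pass: Cacna1d (Cav1.3, an L-type channel) had 15.8 ± 0.445 and 16.1 ± 1.48 CPM (SD, n = 3) and Cacna1a (Cav2.1, the P/Q-type channel) 11.6 ± 1.28 and 10.8 ± 1.44 CPM (SD, n = 3). For Cacna1b, an N-type pore, and the auxiliary subunit Cacna2d4 the log2 values were -0.05 ± 0.24 and 0.25 ± 0.28 (SE). Thus 1 of 7 tested calcium channel genes rose and 0 fell, beside 2.32% and 1.54% of all genes tested.

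Scn3a (ENSMUSG00000057182), which encodes the voltage-gated sodium channel Nav1.3 known from developing neurons, had the largest called change of the 6. With IL-4 it had 25, 16 and 29 counts, and with IL-4+CGRP 91, 61 and 60. These are 1.26, 0.750 and 1.21 CPM against 3.75, 2.80 and 2.70 CPM. Every IL-4+CGRP library was well above every IL-4 library. The rise was 2.87-fold (log2 fold change 1.52 ± 0.25, SE; 95% interval 0.96 to 2.07; edgeR adjusted p = 0.0054), and the call held under the 14 alternatives that tested it, between 1.32 and 1.64. The neuronal markers given above had overlapping sums in the 2 groups. Only 1 of the 9, Syp, had enough counts to be tested. It held most of each sum, at 2.09 CPM on average with IL-4 and 1.73 CPM with IL-4+CGRP. Whether neuronal cells had a part in the rise of Scn3a was not tested. Per length Scn3a still ranked low, at 0.126 and 0.361 CPM per kilobase.

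Other sodium channel genes did not pass. The skeletal muscle channel Scn4a measured 1.97, 2.30 and 2.42 CPM with IL-4 and 1.44, 1.47 and 1.71 CPM with IL-4+CGRP, lower in all 3 libraries without overlap (log2 fold change -0.54 ± 0.21, SE; edgeR adjusted p = 0.24). The beta 3 subunit Scn3b measured 2.35 ± 0.166 and 2.88 ± 0.590 CPM (SD, n = 3). Of 4 sodium channel genes 1 rose and 0 fell, beside 2.32% and 1.54% of all genes tested.

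**Figure D3:**
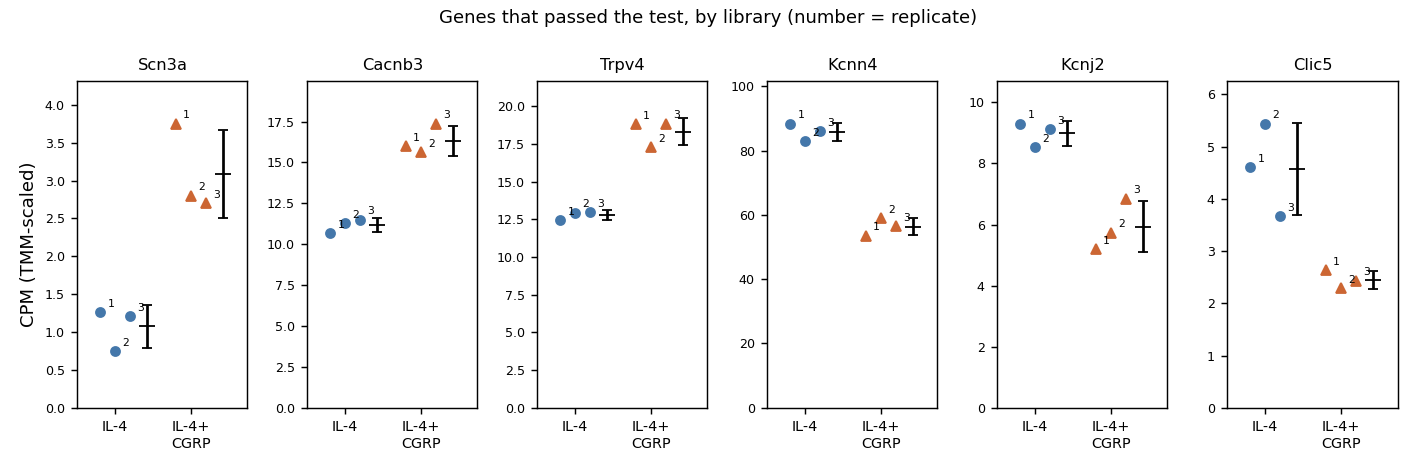
CPM by library for the 6 genes that passed, with circles for IL-4, triangles for IL-4+CGRP, the replicate number beside each symbol, and the mean with SD (n = 3) in black; each axis starts at 0. In all 6 panels the groups do not overlap, and the narrowest gaps relative to the spread are in Kcnj2 and Clic5.

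The chloride intracellular channel genes are a family related to glutathione transferases. Clic5 (ENSMUSG00000023959), tied to the actin cortex through ezrin, measured 4.60, 5.44 and 3.67 CPM with IL-4 and 2.64, 2.29 and 2.43 CPM with IL-4+CGRP. The IL-4 libraries were widely spread and the IL-4+CGRP libraries close together below them. It fell 1.85-fold (log2 fold change -0.89 ± 0.18, SE; edgeR adjusted p = 0.019). It no longer passed when either IL-4 replicate 1 (edgeR adjusted p = 0.070) or IL-4 replicate 2 (0.11) was left out. The same held for leaving out IL-4+CGRP replicate 1 (0.055) or IL-4+CGRP replicate 3 (0.053). It also did not pass in a fit with the replicate number as a block. Its far more abundant relatives did not pass: Clic1 had a 95% interval of log2 fold change from -0.16 to 0.10 and Clic4 from -0.20 to 0.01.

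None of the 4 P2X genes passed with all libraries. P2rx4 measured 669.5, 707 and 671 CPM with IL-4 and 742, 719.7 and 741 CPM with IL-4+CGRP, a log2 fold change of 0.11 ± 0.04 (SE; edgeR adjusted p = 0.24). P2rx7 measured 94.6, 99.1 and 95.2 against 108, 107 and 112.5 CPM, 0.18 ± 0.05 (SE; adjusted p = 0.087). In both genes every IL-4+CGRP library was above every IL-4 library, by a small margin. P2rx1 and P2rx5 lay at 0.367 to 1.53 CPM over all libraries, with log2 fold changes of 0.28 ± 0.30 and -0.85 ± 0.36 (SE).

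Without IL-4+CGRP replicate 2, 5 further genes passed as higher: P2rx4 (log2 fold change 0.12, adjusted p = 0.048), P2rx7 (0.20, adjusted p = 0.015), Trpm7 (0.16, adjusted p = 0.045), Ano6 (0.24, adjusted p = 0.0041) and Ano10 (0.20, adjusted p = 0.035). That made 8 higher and 3 lower, in a fit where 6.78% of all 13492 genes tested were higher and 7.04% lower. With all libraries these shares were 2.32% and 1.54%. Of the IL-4+CGRP libraries, replicate 2 lay nearest to the IL-4 libraries on the first principal component. Leaving it out therefore favours more calls, and these 5 rest on that choice. Trpm7, a channel fused to a kinase that carries magnesium, measured 78.4, 75.6 and 78.4 CPM with IL-4 and 86.5, 75.6 and 86.9 CPM with IL-4+CGRP. Ano6 measured 237, 270.4 and 263 against 303, 242 and 305 CPM, and Ano10, a related anoctamin, 37.3, 39.0 and 39.9 against 45.2, 37.6 and 44.0 CPM. In these 3 genes IL-4+CGRP replicate 2 lay at the level of the IL-4 libraries while replicates 1 and 3 lay above all of them. With all libraries, Ano6, Ano8 and Ano10 had log2 fold changes of 0.14 ± 0.09, -0.06 ± 0.10 and 0.13 ± 0.08 (SE), and 0 of 3 passed.

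**Figure D4:**
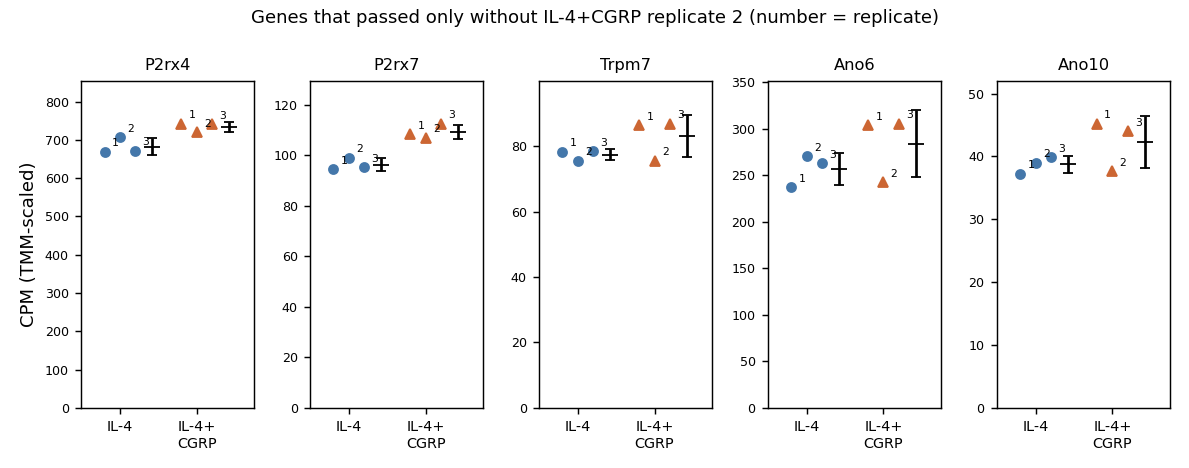
CPM by library for the 5 genes that passed as higher only when IL-4+CGRP replicate 2 was left out, drawn as in the plot of the 6 called genes. In Trpm7, Ano6 and Ano10 the triangle of replicate 2 sits at the level of the circles; in P2rx4 and P2rx7 it sits above them.

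Hcn2, a pacemaker channel gene, measured 0.842 ± 0.162 and 0.777 ± 0.144 CPM (SD, n = 3), with a 95% interval of log2 fold change from -0.81 to 0.57. Hcn3, with 3 to 15 counts with IL-4 and 6 to 20 with IL-4+CGRP, and Cacna1e were too low to test; 17.1% of the exon bases of Hcn3 also overlap Pklr on the other strand. By exon overlap in GENCODE vM21 (GRCm38), 16 of the 47 genes share bases with another gene, and 14 have a deposited value that is not whole. P2rx7, Trpm2, Kcnab2, Kcnd3 and Ano6 are among those with overlaps, and how their shared reads were assigned is not known from the sources used here. Scn3a, Cacnb3, Trpv4, Kcnn4, Kcnj2 and Clic5 are in neither set.

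Other ion transport genes were read from lists outside the 8 name families; Stim1, Saraf, Piezo1, Hvcn1 and Nlrp3 were picked from them after their values were seen. Over all genes tested, 2.32% rose and 1.54% fell, and no list was tested against these shares. Of 11 tested genes of store-operated and endoplasmic reticulum calcium channels, 1 rose and 0 fell. It was Orai1, the pore of store-operated calcium entry, at 25.1, 24.2 and 23.5 against 28.5, 30.5 and 30.2 CPM (1.22-fold, edgeR adjusted p = 0.040). List genes, called or not and Orai1 included, were read with all libraries only. None was followed under the alternatives, such as leaving out IL-4+CGRP replicate 2. Stim1, the activator of Orai1, had a log2 fold change of 0.03 and Saraf, an inhibitor of store-operated entry, -0.19 (edgeR adjusted p = 0.84 and 0.062). Of 13 endolysosomal channel genes, 2 rose and 0 fell: the mucolipin Mcoln2 (1.26-fold; adjusted p = 0.0044) and the chloride/proton exchanger Clcn5 (1.31-fold; adjusted p = 0.0077). Mcoln2 measured 76.0 ± 2.54 and 96.0 ± 3.77 CPM and Clcn5 119.7 ± 2.36 and 157 ± 15.5 CPM (SD, n = 3), with IL-4+CGRP replicate 2 the lowest of its group in both.

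Of 9 tested large-pore, mechanosensitive and proton channel genes, 1 rose, the gap junction protein Gja1 (2.68, 1.78 and 1.79 against 4.37, 4.13 and 4.37 CPM; 2.07-fold; edgeR adjusted p = 0.0094), and 0 fell. Piezo1, a stretch-activated channel, had 254 ± 12.4 and 249.4 ± 18.7 CPM, and the proton channel Hvcn1 131 ± 7.69 and 133 ± 3.67 CPM (SD, n = 3); neither passed. Of 16 pumps and exchangers 1 fell, the potassium-chloride cotransporter Slc12a4 (1.22-fold; adjusted p = 0.025), and 0 rose. Among 12 tested kinases, calmodulins and other genes linked to channels, Nlrp3 included, 2 fell and 0 rose. Sgk1, a kinase that promotes channel surface expression, was 1 of those that fell (1.26-fold, edgeR adjusted p = 0.0078). Beside these list counts, 2.32% of all genes tested rose and 1.54% fell.

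Volume-regulated and other anion channels (11 tested) and mitochondrial uniporter and VDAC genes (10 tested) had 0 calls in either direction by edgeR, with 2 and 3 genes at an unadjusted p under 0.05 (2098 of 13260 over all genes tested). Their median log2 fold changes were 0.05 and -0.14. Nlrp3, the inflammasome sensor that responds to potassium efflux, measured 18.3, 18.8 and 20.1 against 22.3, 22.1 and 24.8 CPM without overlap, and did not pass (edgeR adjusted p = 0.11).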

How the data were processed

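RNA sequencing counts of 6 libraries were used, 3 from macrophages given IL-4 and 3 given IL-4+CGRP. The authors' deposited table holds estimated counts per gene, the mean of each group and a gene length. Per the submitters' processing notes, fastp, HISAT2, StringTie and build GRCm39 were used. No version, annotation or strand setting of the counting is given in the sources used here. Per the labels' protocols, libraries came from a stranded mRNA kit. Estimated counts were rounded to whole numbers. The filterByExpr filter, set by group, left 13260 genes with 99.9% of all counts, and TMM scaling gave factors of 0.985 to 1.02. Groups were compared over all genes with edgeR 4.0.16 in R 4.3.3 (quasi-likelihood F test, two-sided, robust), Benjamini-Hochberg adjustment and a threshold of 0.05. The SE is the absolute log2 fold change over the root of F, and intervals (95%) use the fit's t quantile. CPM are counts over TMM-scaled totals; levels per kilobase divide CPM by the authors' deposited gene length in bases.

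The members and lists were chosen with earlier results of these data known. The rule for named genes took all called members, a set of known macrophage channels, the 5 most abundant, the 3 on each side of the count limit and the 5 smallest p-values that did not pass. All other members were named after their values were seen. A few genes are not reported here by name or in the plots, though they remain in the counts and medians. Alternatives were 3 other scalings, 2 count filters, DESeq2 1.42.0, limma-voom (limma 3.58.1), 2 other mean counts for membership, leaving out each library, a replicate block, and a fit without robust dispersion. The script was tested on simulated data for this comparison (200 of 13260 genes changed): 38% of genes changed 1.3-fold, 76% at 1.5-fold, 74% at 2-fold and 96% at 4-fold were recovered, and 0.11% of unchanged genes were called.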

Additional observations from a re-analysis of the deposited data

How the results depend on the processing

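Scn3a, Cacnb3 and Trpv4 were called higher in every alternative that tested them, and Kcnn4 was called lower in all 15. With a mean count of at least 50, 30 members were tested and Scn3a was not among them; 2 members were higher, and the members' median log2 fold change was 0.038. With each library left out in turn, 3 to 8 members were called higher and 1 to 3 lower, and the median was 0.08 to 0.13; the 8 came without IL-4+CGRP replicate 2. With the replicate block, 3 were higher and 1 lower, as Kcnj2 and Clic5 ended (adjusted p = 0.062 for both). The labels do not state whether replicate numbers pair the libraries. Same-numbered libraries deviated from their group means with correlations of -0.19, -0.18 and 0.13. With 3 libraries per group these values cannot settle whether the numbers pair them. Other scalings, DESeq2, limma-voom, no count filter, a fit that was not robust, and members taken at a mean count of 5 or 20 gave 3 higher and 3 lower each. Over all genes, calls without IL-4+CGRP replicate 2 were 915 higher and 950 lower, against 307 and 204. With no count filter they were 584 and 434, and with the replicate block 176 and 86. Scaling by library totals gave 354 higher and 143 lower. For members near the count limit, such as Hcn2 (SE 0.32), a fall of the size of Kcnn4's was not detectable at this depth.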
